A study of Homo sapiens with 4 samples.

Results

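The genes described here encode the serine/arginine-rich splicing factors (SR proteins) and the heterogeneous nuclear ribonucleoproteins (hnRNPs). They were chosen by symbol alone, as every row of the deposited table that begins with SRSF and a digit, HNRNP or HNRP and lies on an assembled chromosome. Of 24934 gene rows, 39 were members, with 12 SRSF rows and 27 hnRNP rows on 16 chromosomes. One further row of SRSF10, on an unplaced contig and listed at 0 in every library, was left out.

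HEK-293, an established line derived from human embryonic kidney, was transfected for 48 h with 10 nM of siRNA. The siRNAs si4 and si5 target ZSCAN5A, si1 targets its paralog ZSCAN5B, and a scrambled siRNA served as the negative control. Each treatment gave 1 RNA-seq library, 4 in all, so the ZSCAN5A group has n = 2 libraries made with different siRNAs, and the other groups have 1 library each. All libraries come from the same cell line and transfection reagent, and no untransfected cells were among them.

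SR proteins carry RNA recognition motifs and a tail rich in arginine and serine. They bind exonic enhancers in pre-mRNA and help to recruit the spliceosome, and several also act in mRNA export and translation. The hnRNPs coat nascent transcripts, and many of them silence splice sites or oppose SR proteins at nearby sites. Both families are abundant in dividing cells, and many members control their own mRNA through alternative exons that send it to nonsense-mediated decay.

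The values are FPKM, fragments per kilobase of transcript relative to library size, as the authors deposited them. FPKM is a level per length, so that it can be compared between genes. ZSCAN5A, checked first, had 0.73 and 0.713 FPKM in the si4 and si5 libraries, 2.53 FPKM in the si1 library and 2.42 FPKM in the control. ZSCAN5B stood at 0.0948 FPKM with si1 and 0.0903 FPKM in the control, which is 105% of the control, from 16 and 15 fragments. The ratio of fragments with si1, scaled to depth, had an exact 95% Clopper-Pearson interval of 0.486 to 2.28. With si4 and si5, ZSCAN5B had 6 and 17 fragments, at 0.366 (0.116 to 0.999) and 0.734 (0.345 to 1.58) times the control. Since the targeted gene was not lower there, the si1 sample is referred to as the library labelled ZSCAN5B knockdown. Steps between low FPKM values gave an estimated 53700000 to 83000000 fragments per library, with si5 the deepest at 1.54 times the control. Markers of HEK-293 were present in every library (VIM 270 to 359 FPKM, KRT8 148 to 199 FPKM, NEFL 37.0 to 45.2 FPKM). PAX2, a kidney marker, was low, at 0.584 to 1.16 FPKM. The blood marker PTPRC and the liver marker ALB stayed at or under 0.0335 FPKM, HBB was at 0, and COL1A1 was at 1.10 to 1.85 FPKM.

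The 3 siRNAs are shown because short matches to their guide strands occur in the 3′ UTRs of some members. The capitals in each guide mark the seed, bases 2 to 8 from its 5′ end, written with T for U. The guides of si4 and si5 were derived from targets at chr19:56733332-56733352 and chr19:56733307-56733327 (GRCh37, minus strand), within exon 6, the last exon of ZSCAN5A, and its coding part. The target of si1 lies at chr19:56701591-56701611 (minus strand), within exon 5, the last exon of ZSCAN5B, again in its coding part.
si4 guide: tTACACGTaaacctcttctcg
si5 guide: tCTCTTGTggatgactagctt
si1 guide: tAAATGATttattgcacacgt

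Of the 39 members, 35 were at 1 FPKM or above somewhere and above 0 in all 4 libraries, with all 12 SRSF rows and 23 hnRNP rows among them. The other 4 were hnRNP rows. HNRNPCL1, a relative of HNRNPC, and the pseudogene HNRNPKP3 were listed at 0 in every library. The pseudogene HNRNPA3P1 stayed under 1 FPKM, with 7, 11, 13 and 11 fragments in the si4, si5, si1 and control libraries. HNRNPK, which encodes a KH-domain protein that binds C-rich RNA, was at 343 FPKM with si4, 338 FPKM with si1 and 312 FPKM in the control, and was listed at 0 with si5. Such a 0 in a gene this abundant is reported as listed at 0 and not as loss. EEF1A1, a translation elongation factor, showed the same pattern, at 4374, 0, 4161 and 3614 FPKM in the si4, si5, si1 and control libraries, and only these 2 rows were at 0 with si5 alone while above 100 FPKM elsewhere. Of all rows, 95 were at 0 in some library and at 1 FPKM or above in another.

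**Figure D1:**
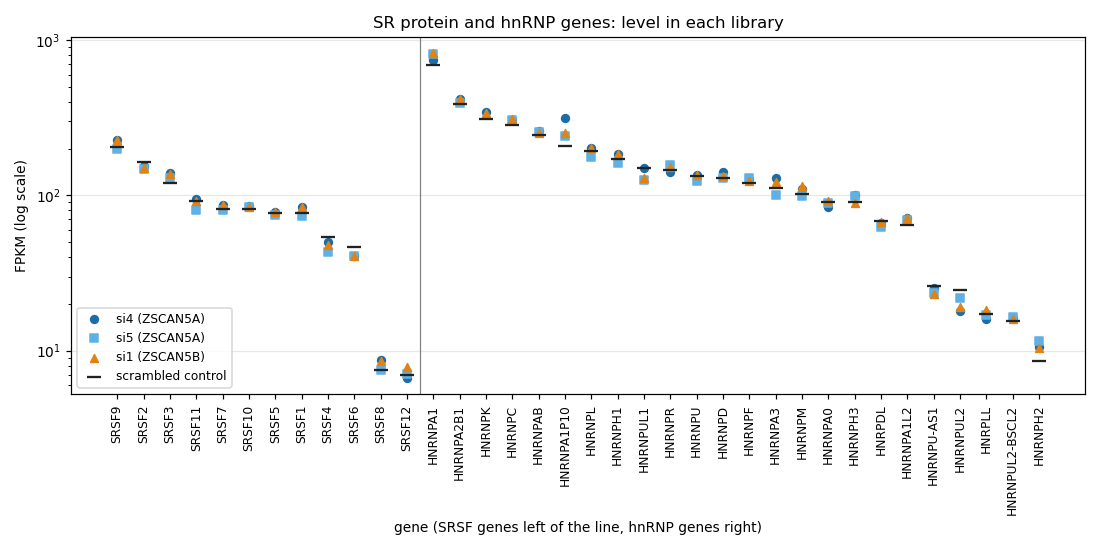
FPKM (log axis) of the 36 members that reached 1 FPKM in the control, in each of the 4 libraries, with SRSF genes left of the line and hnRNP genes right of it; each point is 1 library and HNRNPK has no si5 point because it was listed at 0. Levels run from 8.58 FPKM (HNRNPH2) to 693 FPKM (HNRNPA1) in the control among hnRNP genes and from 7 FPKM (SRSF12) to 205 FPKM (SRSF9) among SRSF genes, and the libraries differ little at each gene.

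The control library gave the order of levels. In it, 28 members exceeded 50 FPKM and 18 exceeded 100 FPKM. HNRNPA1, a core hnRNP that silences exons and binds along nascent transcripts, was the highest, at 741, 814, 820 and 693 FPKM in the si4, si5, si1 and control libraries. HNRNPA2B1, a relative that also acts in mRNA transport, followed at 419, 393, 417 and 386 FPKM. Every siRNA library was above the control for both genes.

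HNRNPC, which binds uridine tracts as a tetramer and keeps Alu-derived exons out of mRNA, had 306, 304, 311 and 283 FPKM. HNRNPAB, an A/B-type protein, had 260, 257, 253 and 243 FPKM. The ranges of HNRNPC and HNRNPAB did not overlap over the 4 libraries, whereas that of HNRNPK without its 0 (312 to 343 FPKM) touched that of HNRNPC at its upper end (311 FPKM) to within 1 FPKM.

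Among the SRSF genes, SRSF9, the highest, had 226, 199, 226 and 205 FPKM in the si4, si5, si1 and control libraries. SRSF2, a classical SR protein (SC35), had 155, 148, 150 and 163 FPKM, and SRSF3, the smallest of the classical SR proteins, had 139, 130, 137 and 121 FPKM. Each of these 3 stood clear of the next in every library.

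SRSF11, SRSF7, SRSF10, SRSF5 and SRSF1 formed a tight group at 77.2 to 92.3 FPKM in the control. SRSF11 had 95.3, 80.0, 91.4 and 92.3 FPKM, SRSF7, a zinc-knuckle SR protein that acts in mRNA export, had 86.6, 81.0, 86.3 and 81.5 FPKM, and SRSF1 (ASF/SF2) had 84.5, 73.4, 84.2 and 77.2 FPKM. Over the libraries the ranges of SRSF11, SRSF7 and SRSF10 overlapped, as did those of SRSF5 and SRSF1, so the order within each of these sets is not resolved. SRSF5 (74.3 to 78.0 FPKM) lay under the first set in every library. SRSF8 and SRSF12, at 7.54 and 7 FPKM in the control, closed the list and overlapped as well.

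Summed over the table's rows above 0 in all libraries, the 12 SRSF genes took 0.196%, 0.180%, 0.197% and 0.210% of the FPKM in the si4, si5, si1 and control libraries. The hnRNP rows without HNRNPK took 0.698%, 0.673%, 0.708% and 0.719%. Both shares were highest in the control. The FPKM of these genes summed to 1014 for SRSF and 3476 for hnRNP rows in the control, against 969 to 1056 and 3623 to 3770 in the siRNA libraries. The sum over the whole table was 488036 in the control and 537181 to 546239 in the siRNA libraries, and the part of this difference in the shares was not tested. FPKM measures shares of the RNA in bulk cells, so fewer cells of a kind and less RNA per cell cannot be told apart.

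The comparison of si4 and si5 with the control asked which genes respond to loss of ZSCAN5A. No member whose values were above 0 in all 3 libraries differed by more than 1.5-fold between the mean of si4 and si5 and the control. Over all rows of that kind, 3.63% passed, out of 12965 with at least 1 FPKM in a library of the comparison. Where a 0 in 1 of the 2 siRNA libraries was averaged in, 3.79% of 12993 rows passed and 1 member did. This was HNRNPK, at a ratio of 0.55, which came from its listed 0 with si5; with si4 its ratio was 1.10. With si4 alone, 1 member passed the limit (HNRNPA1P10, 6.36% of all genes passed), and with si5 alone 0 did (3.54% of all genes passed).

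The library labelled ZSCAN5B knockdown gave 0 members past 1.5-fold, where 4.01% of 12921 genes passed. Its ratios to the control ran from 0.782 (HNRNPUL2) to 1.21 (HNRNPH2) among the members. The comparisons share the same control library, and with 1 control none of these differences has a replicate check.

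As an alternative with a test, limma on log2(FPKM + 1) over 13078 rows, with Benjamini-Hochberg adjustment, called 0 of 36 members in either comparison and 10 rows of all genes in each. It had 1 residual degree of freedom, from si4 against si5. The member ranked first by limma in the ZSCAN5A comparison was HNRNPH2, at a log2 ratio of 0.36 for the mean of si4 and si5. The share of all rows at an unadjusted limit was not counted, so no such count is given for the members.

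**Figure D2:**
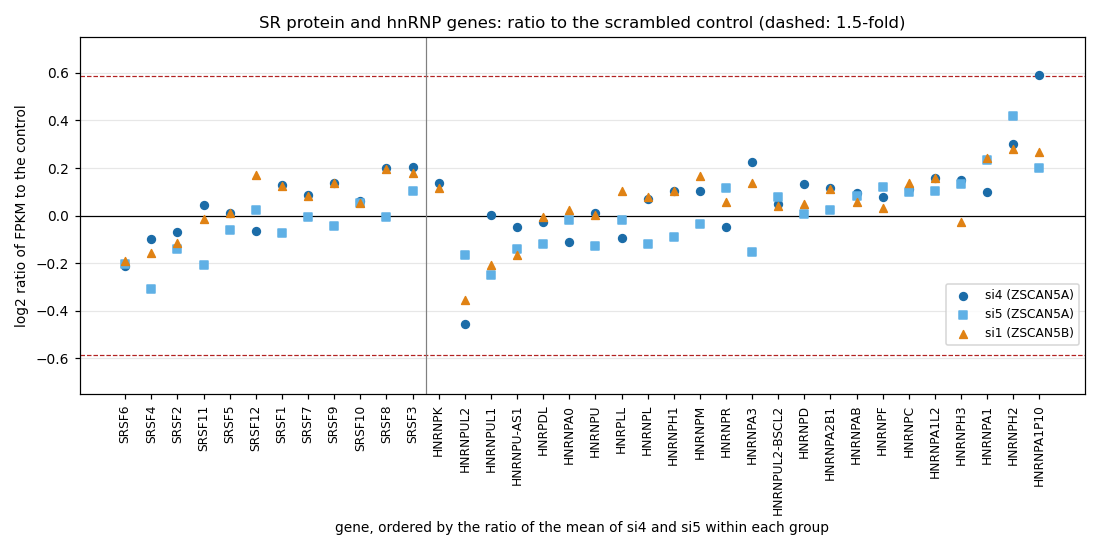
Log2 ratio of FPKM to the scrambled control for the members at 1 FPKM or above in the control, 1 point per siRNA library, ordered within SRSF (left) and hnRNP (right) genes by the ratio of the mean of si4 and si5; dashed lines mark 1.5-fold. All points lie between the dashed lines except HNRNPA1P10 with si4 (0.59); HNRNPK has no si5 point and stands first among the hnRNP genes because its mean includes the listed 0.

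The SRSF genes as a group lay close to the control. Their median log2 ratio was 0.007 with the mean of si4 and si5, with quartiles of -0.08 and 0.05, and 0.069 with si1. The 23 hnRNP rows above 0 throughout had a median of 0.05 with the mean of si4 and si5, and 24 had a median of 0.067 with si1. The medians over all genes were -0.019 and -0.010. With the mean of si4 and si5, 6 of 12 SRSF and 15 of 23 hnRNP rows were above the control in value, against 46.8% of all genes. With si1, 8 of 12 and 19 of 24 were above it, against 48.5% of all genes. These counts describe signs of small ratios.

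Whether the control stood outside the range of the siRNA libraries was counted next. The control was below all 3 siRNA libraries for 12 of 35 members (34.3%, against 30.1% of all genes), and these were HNRNPA1, HNRNPA1L2, HNRNPA1P10, HNRNPA2B1, HNRNPAB, HNRNPC, HNRNPD, HNRNPF, HNRNPH2, HNRNPUL2-BSCL2, SRSF3 and SRSF10. It was above all 3 for 6 members (17.1%, against 36.2% of all genes), which were HNRNPU-AS1, HNRNPUL2, HNRPDL, SRSF2, SRSF4 and SRSF6. With a gap of more than 1.2-fold required, 1 member had the control below (HNRNPH2, with 3.34% of all genes) and 0 had it above (9.03% of all genes). HNRNPA1, HNRNPA1P10 and HNRNPA1L2 can share reads, so they are not separate counts. The shares of all genes cover every level from 1 FPKM, whereas 28 of the 39 members exceeded 50 FPKM in the control.

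Among the SR proteins, SRSF6 (SRp55), which binds exonic enhancers and is known for its effect on tau exon inclusion, stood furthest below the control with the mean of si4 and si5. It had 40.4, 40.7, 41.0 and 46.8 FPKM in the si4, si5, si1 and control libraries. The 3 siRNA libraries lay within 1 FPKM of each other and the control stood above them. The mean of si4 and si5 was 40.5 ± 0.232 FPKM (SD, n = 2), a log2 ratio of -0.21, and the log2 ratio with si1 was -0.19. From the length of its canonical transcript, an estimated 9744 to 14695 fragments stand behind each value. The ratios of 0.862, 0.869 and 0.876 had exact 95% intervals of 0.839 to 0.886, 0.848 to 0.891 and 0.852 to 0.900, for counting error alone. That transcript runs past the end of the SRSF6 row, so the fragments may be overstated and the intervals too narrow.

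SRSF4 (SRp75), the longest of the classical SR proteins, had 50.2, 43.4, 48.2 and 53.7 FPKM. The control was the highest of the 4 libraries, and si5 gave the lowest value, at a log2 ratio of -0.31 against -0.10 with si4 and -0.16 with si1. SRSF2 showed the same order, with the control above all siRNA libraries, at log2 ratios of -0.07, -0.14 and -0.12.

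SRSF3 was the SRSF gene highest above the control with ZSCAN5A siRNAs. Its mean of si4 and si5 was 135 ± 6.67 FPKM (SD, n = 2) against 121 FPKM, and its log2 ratios were 0.20, 0.10 and 0.18 with si4, si5 and si1. SRSF8, a retrogene-derived relative of SRSF2, stood highest with si1 at 8.65, 7.51, 8.64 and 7.54 FPKM, but its si5 value lay just under the control. SRSF10, which is activated as a splicing repressor when dephosphorylated, had 84.9, 84.4, 84.5 and 81.4 FPKM. This was the smallest spread of all members, with its highest and lowest libraries 1.04-fold apart. However, 77.9% of the 101-base windows of its transcript also occur elsewhere in GRCh37. The longest copy, 7107 aligned bases at 99.7% identity, lies on a contig outside the assembled chromosomes, and the next longest has 1342 aligned bases.

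The other SRSF genes had the control inside the range of the siRNA libraries. These were SRSF1, SRSF5, SRSF7, SRSF8, SRSF9, SRSF11 and SRSF12. In 10 of the 12 SRSF genes si4 was above si5, with a median log2 difference of 0.098, where si4 was above si5 in 54.4% of all genes and in 57.9% of the 1460 genes from 50 FPKM in the control. The largest such differences were SRSF11 (0.25), SRSF4 (0.21), SRSF8 (0.20) and SRSF1 (0.20) on the log2 scale. The siRNAs si4 and si5 have the same target but differ in sequence, with 1 library each and unlike depth. These differences are therefore not a spread between replicates. No SRSF gene had a log2 ratio to the control beyond -0.31 or 0.20.

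The A/B-type hnRNPs, which carry a pair of RNA recognition motifs and a glycine-rich tail, were above the control in most libraries. HNRNPA1 had log2 ratios of 0.10, 0.23 and 0.24 with si4, si5 and si1, and its mean of si4 and si5 was 778 ± 51.6 FPKM (SD, n = 2). HNRNPA1L2, an intronless copy of HNRNPA1 on chromosome 13, had 71.9, 69.0, 71.7 and 64.3 FPKM. HNRNPA3 had 130, 100, 122 and 111 FPKM. The control lay inside the siRNA libraries for HNRNPA3, whose si4 and si5 values differed by a log2 ratio of 0.38, and outside them for the other 2 genes. HNRNPA0 had 84.3, 89.8, 92.3 and 90.9 FPKM, with the control inside.

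The row named HNRNPA1P10 had 314, 240, 251 and 209 FPKM, with a mean of si4 and si5 of 277 ± 52.4 FPKM (SD, n = 2). Its log2 ratios were 0.59, 0.20 and 0.27, the first of them the largest ratio of any member, and its log2 difference of 0.39 between si4 and si5 was the largest among the members. Its coordinates in the table, chr12:54674533-54678663 (hg19), lie inside the HNRNPA1 row at chr12:54674488-54679030, while GENCODE, lifted to GRCh37, puts a pseudogene of this symbol on chromosome 19. A fragment of this locus can therefore fall to either row. Added together, both rows came to 1056, 1054, 1072 and 902 FPKM in the si4, si5, si1 and control libraries. The sums with si4 and si5 stood at a ratio of 1.00 to each other, where the single rows were 0.910 and 1.31, and each siRNA sum was 1.17 to 1.19 times the control. The change past 1.5-fold with si4 alone was therefore not seen in the sum.

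**Figure D3:**
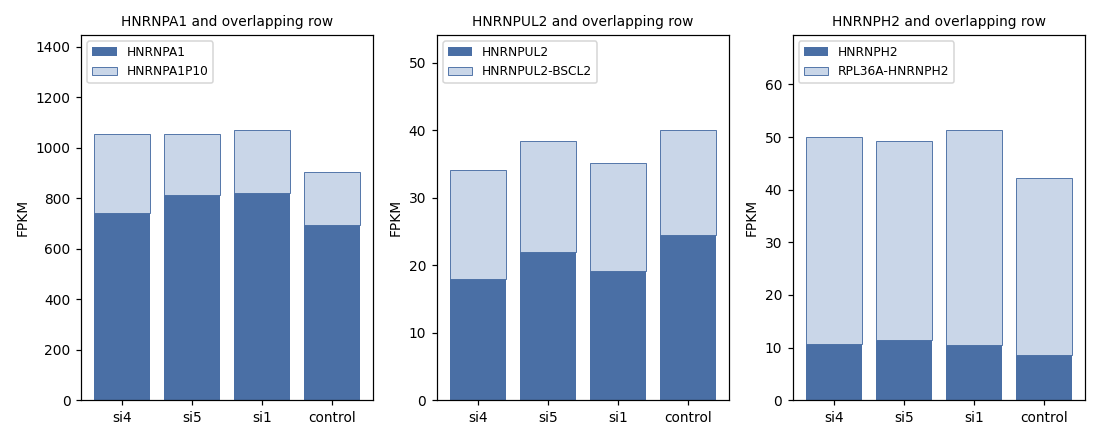
Stacked FPKM (bars start at 0) of 3 pairs of overlapping rows in each library: HNRNPA1 with HNRNPA1P10, HNRNPUL2 with HNRNPUL2-BSCL2 and HNRNPH2 with RPL36A-HNRNPH2. The HNRNPA1 pair sums to 1056, 1054 and 1072 FPKM in the siRNA libraries and 902 in the control, although its parts differ between si4 and si5.

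HNRNPA1 has many near-identical copies, which bear on how its reads could be placed. Windows of 101 bases, the number of sequencing cycles, were taken along the canonical coding sequence of each member and looked for elsewhere in GRCh37. For HNRNPA1, 66.3% of windows stood exactly at another place, from 60 copies of at least 300 bases and 90% identity. HNRNPA3 had 71.0%, SRSF10 39.8%, HNRNPA1L2 22.3%, HNRNPC 19.3%, HNRNPCL1 15.5%, SRSF6 14.2% and HNRNPL 9.2%, and every other coding member was at 1.8% or under. Over whole transcripts the order differed, with 77.9% for SRSF10, 33.0% for HNRNPA1, 30.4% for HNRNPA1L2, 18.5% for HNRNPA3, 15.6% for HNRNPC, 7.8% for HNRNPL and 3.1% for SRSF6. The levels of SRSF10, HNRNPA1, HNRNPA1L2, HNRNPA3 and HNRNPC are therefore uncertain to the extent that reads were split among copies, and the counting rule for such reads is not given in the sources used here.

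HNRNPA1, its overlapping row and HNRNPA1L2 summed to 1127, 1123, 1143 and 966 FPKM in the si4, si5, si1 and control libraries, so that the control was again the lowest.

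The U-type hnRNPs, scaffold proteins that bind RNA and chromatin, included the measured member furthest below the control in both comparisons. HNRNPUL2 had 17.9, 21.9, 19.2 and 24.5 FPKM. All 3 siRNA libraries were under the control, with log2 ratios of -0.46, -0.17 and -0.36, and the spread between si4 and si5 (mean 19.9 ± 2.82 FPKM, SD, n = 2) was itself wide. HNRNPUL2-BSCL2, a read-through row that runs from HNRNPUL2 into the next gene and holds its exons, had 16.2, 16.5, 16.0 and 15.6 FPKM. The 2 rows summed to 34.0, 38.4, 35.2 and 40.1 FPKM, with the control still highest, at ratios of 0.848, 0.956 and 0.877. With si5 the sum was thus within 1.2-fold of the control, as it was with the other siRNAs.

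HNRNPUL1 had 150, 126, 130 and 150 FPKM, level with the control with si4 and below it with the other siRNAs. HNRNPU, also known as scaffold attachment factor A, had 135, 123, 135 and 134 FPKM, and the control lay among the siRNA values. The antisense row HNRNPU-AS1 had 25.2, 23.6, 23.2 and 26.1 FPKM, with the control the highest. It lies at chr1:245003940-245010243 and does not overlap the HNRNPU row at chr1:245013602-245027827 (hg19). The library kits are described as stranded, but the strand setting of the counting is not given in the sources used here.

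The F/H-type hnRNPs, which bind G-rich runs through quasi-RNA recognition motifs, were at or above the control in most libraries. HNRNPH2, on the X chromosome, had 10.6, 11.5, 10.4 and 8.58 FPKM. The control was the lowest, and it was the only member with the control more than 1.2-fold below every siRNA library. Its log2 ratios were 0.30, 0.42 and 0.28, and its mean of si4 and si5 was 11 ± 0.641 FPKM (SD, n = 2). An estimated 1058 to 2186 fragments stand behind each value, and the ratios of 1.23, 1.34 and 1.21 had exact 95% intervals of 1.14 to 1.34, 1.24 to 1.44 and 1.12 to 1.32.

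The read-through row RPL36A-HNRNPH2, which is no member by its symbol, covers the same gene, at 39.5, 37.7, 41.0 and 33.7 FPKM. Its sum with HNRNPH2 was 50, 49.1, 51.4 and 42.2 FPKM, at 1.18, 1.16 and 1.22 times the control. With si4 and si5 the sum was thus within 1.2-fold of the control. The gap and intervals given for HNRNPH2 hold for its own row alone. RPL36A, the ribosomal protein gene at its start, was at 1174, 1241, 1141 and 1050 FPKM, so the control was the lowest in each of these rows.

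HNRNPF had 127, 130, 123 and 120 FPKM, with the control lowest. HNRNPH1 had 184, 161, 184 and 171 FPKM and HNRNPH3 had 100, 99.0, 88.7 and 90.3 FPKM. For HNRNPH1 only si5 was under the control, and for HNRNPH3 only si1 was.

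The other hnRNPs had ratios of 0.920 to 1.12 to the control in every library. HNRNPD (AUF1), which binds AU-rich elements, had 142, 130, 134 and 130 FPKM, and its relative HNRPDL had 66.8, 62.6, 67.8 and 68.1 FPKM. HNRNPL, which binds CA repeats, had 201, 176, 202 and 192 FPKM, and its relative HNRPLL, known as a regulator of CD45 splicing in lymphocytes, had 16.0, 16.9, 18.4 and 17.1 FPKM. HNRNPM, which binds GU-rich motifs, had 110, 99.6, 115 and 102 FPKM, and HNRNPR had 141, 158, 152 and 146 FPKM. The control lay inside the siRNA libraries for 4 of these 6 genes, below them for HNRNPD and above them for HNRPDL.

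The largest differences between si4 and si5 were in HNRNPA1P10 (0.39 on the log2 scale), HNRNPA3 (0.38) and HNRNPUL2 (-0.29, si5 higher). Over the 23 hnRNP rows the median size of this difference was 0.119, against 0.115 over all genes and 0.087 over genes from 50 FPKM in the control.

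Across all genes the ratio to the control moved with the level in the control, and the members were read beside genes of like level. With the mean of si4 and si5, the median log2 ratio of all genes was -0.126 from 1 to 5 FPKM, -0.036 from 5 to 20 FPKM, 0.035 from 20 to 50 FPKM, 0.117 from 50 to 100 FPKM, 0.163 from 100 to 200 FPKM and 0.228 from 200 FPKM up. The members' medians in the 3 highest of these classes were 0.004 (10 rows), 0.036 (11 rows) and 0.098 (6 rows). With si1 they were 0.016, 0.055 and 0.136, against 0.122, 0.166 and 0.209 for all genes. The abundant SR protein and hnRNP genes thus had lower ratios than the median gene of their level.

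Of the 27 members from 50 FPKM in the control, 24 were below the all-gene median of their class with the mean of si4 and si5, by a median of -0.127 on the log2 scale. All 9 SRSF genes of that level were below it, and 15 of 18 hnRNP rows. With si1, 21 of 27 were below it, by a median of -0.099. The exceptions among hnRNP rows with the ZSCAN5A siRNAs were HNRNPA1P10, HNRNPA1L2 and HNRNPH3. The control enters both the class and the ratio, and this comparison was chosen after the values had been seen, so that it is a description only. The sum of the table's FPKM was lower in the control than in the siRNA libraries, as given above, and the part of library make-up in these values was not tested.

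**Figure D4:**
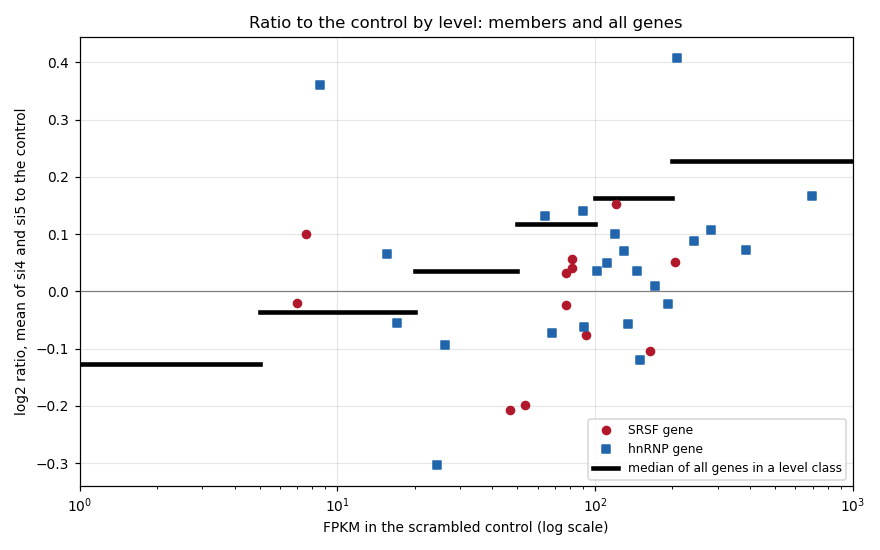
Log2 ratio of the ZSCAN5A group (mean of si4 and si5) to the control against the FPKM in the control (log axis), with 1 point for each of the 35 members above 0 in all libraries and black bars for the median of all genes in each level class, the highest class being open above. The bars climb from -0.126 to 0.228, while most members from 50 FPKM up lie below their bar.

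GC content of the transcript was compared as well, since it can move with library preparation. All genes were split by GC content into 4 classes of equal size. The class with the lowest GC content (30.7% to 41.8%) had a median log2 ratio of 0.047 with the mean of si4 and si5, and the other classes had -0.033, -0.070 and -0.049 in rising order of GC content. Of the members with a matched transcript, 15 lay in the lowest class with a median of 0.036, and 9, 8 and 1 lay in the others with medians of 0.10, -0.063 and 0.065. The members thus lean towards low GC content. Its part in their ratios was not tested.

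Matches to the siRNA seeds in the 3′ UTRs of canonical transcripts were counted in 33 members. The motifs were ACGTGTA for si4, ACAAGAG for si5 and ATCATTT for si1, read on the transcript strand. A match to si4 was in 1 member (HNRPLL) and in 3.42% of 10920 genes. Matches to si5 were in 6 members and in 12% of genes, and matches to si1 were in 12 members and in 23.6% of genes. Examples are given because HNRPLL holds the only si4 match, HNRNPA1 and SRSF6 lie on opposite sides of the control, and HNRNPUL2 was furthest below the control with si1. Capitals mark the match.
HNRPLL, si4 match, chr2:38790756-38790784, minus strand: gacatggatacACGTGTAcagtatgcatt
HNRNPA1, si5 match, chr12:54679984-54680012, plus strand: gaaggaggcagACAAGAGtaaggcacacc
SRSF6, si5 match, chr20:42092502-42092530, plus strand: atatgaacagtACAAGAGagtaccataac
HNRNPUL2, si1 match, chr11:62480487-62480515, minus strand: tagtccaagagATCATTTgcaacaacagt

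The median log2 ratio of members with a match was -0.095 with si4, -0.067 with si5 and 0.055 with si1. For members without one it was 0.083, -0.017 and 0.078. HNRNPUL2, with a match to si1 alone, had log2 ratios of -0.46, -0.17 and -0.36 with si4, si5 and si1. HNRNPA1 and SRSF6 have a match to si5 alone. In the same order, the log2 ratios were 0.10, 0.23 and 0.24 for HNRNPA1 and -0.21, -0.20 and -0.19 for SRSF6. The other members with a si5 match were HNRNPA3, HNRNPU, SRSF8 and HNRNPA2B1. Their log2 ratios with si5 were -0.15, -0.13, -0.005 and 0.02, under those with si4 (0.23, 0.01, 0.20 and 0.12) and si1. Among all measured members, with or without a match, si4 was above si5 in 10 of 12 SRSF and 15 of 23 hnRNP rows. The sites of HNRNPA1 and SRSF6 lie past the ends of their rows in the deposited table, in longer GENCODE models (GRCh37). A match is a description of the sequence and not a site shown to be used. Any part of the matches in these ratios was not tested.

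Genes that work with the members were read from 5 lists. Rows at 0 in a library of the comparison were left out of the lists. Of 16 measured hnRNPs whose symbols do not begin with HNRNP, 1 rose past 1.5-fold with the mean of si4 and si5 (3.63% of all genes passed). With si1, 0 passed (4.01% of all genes). The gene that rose was PTBP2, the neuronal polypyrimidine tract-binding protein, at 20.1, 5.17, 5.20 and 5.11 FPKM. Only the si4 library was high, at 3.93 times the control, and si5 and si1 were level with it at 1.01 and 1.02. PTBP1 (hnRNP I), which is known to repress a PTBP2 exon so that the mRNA decays, had 86.2, 116, 126 and 139 FPKM. It was lowest with si4, at 0.622 times the control and past 1.5-fold, and at 0.838 and 0.907 with si5 and si1. Neither PTBP1 nor PTBP2 holds a 3′ UTR match to the si4 seed in its canonical transcript. Other kinds of match were not searched, and the cause of these values was not tested.

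PCBP2, a poly(C)-binding protein, was the lowest of that list against the control with si1, at 140, 141, 135 and 162 FPKM. CIRBP, a cold-inducible RNA-binding protein, was the highest, at 79.5, 73.3, 78.3 and 68.8 FPKM. Both had the control outside the siRNA libraries, on opposite sides.

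Of 29 SR-related proteins, 1 fell past 1.5-fold with the mean of si4 and si5 and the same gene with si1, against 3.63% and 4.01% of all genes. It was SRRM2, a large serine/arginine-rich protein of the spliceosome and of nuclear speckles, at 24.1, 23.5, 25 and 44.6 FPKM. The 3 siRNA libraries were 0.528 to 0.560 times the control, and log2 ratios were -0.89, -0.92 and -0.84. SRRM1, its partner in the SRm160/300 coactivator, had 24.7, 22.5, 24.3 and 34.1 FPKM and passed 1.5-fold with si5 alone, at 0.660 times the control. PPIG, a cyclophilin with an SR-rich tail, was highest against the control, at 36.2, 33.4, 35.8 and 27.0 FPKM. The median over the list was -0.009 with the mean of si4 and si5 and -0.014 with si1, close to the medians of all genes.

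**Figure D5:**
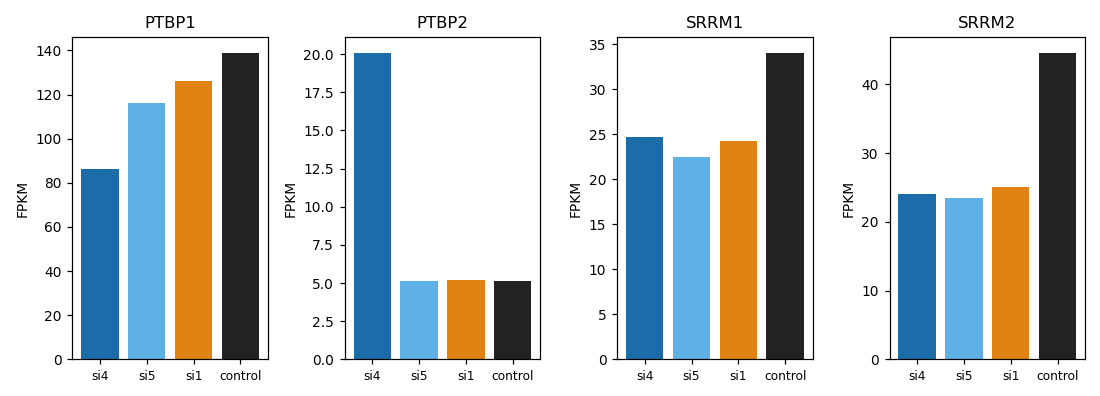
FPKM (bars start at 0, each panel with its own scale) of PTBP1, PTBP2, SRRM1 and SRRM2 in the 4 libraries. PTBP2 stands at 20.1 FPKM with si4 and at 5.11 to 5.20 FPKM in the others, and SRRM2 at 23.5 to 25 FPKM with the siRNAs and 44.6 FPKM in the control.

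Kinases, methyltransferases and importers of SR proteins and hnRNPs gave 17 measured genes. Of these, 0 passed the limit in either comparison, where 3.63% and 4.01% of all genes passed. PRMT1, which methylates arginines of hnRNPs, was highest at 252, 230, 251 and 184 FPKM. CLK2, a kinase of SR proteins, had 17.4, 14.1, 17.2 and 20.4 FPKM, and DYRK1A had 11.6, 11.2, 11.3 and 13.7 FPKM. The control lay below all siRNA libraries for PRMT1 and above them for both kinases.

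Of 15 genes of the exon junction complex and nonsense-mediated decay, 0 passed, against the same 3.63% and 4.01% of all genes. MAGOH, a core protein of that complex, had 70.3, 64.5, 69.6 and 54.1 FPKM, and CASC3, another core protein, had 17.7, 18.7, 17.9 and 24.2 FPKM, so that the control lay on opposite sides of the siRNA libraries. The last list held 21 regulators of alternative splicing, only some of them tissue-restricted. Of the 16 measured, 0 passed with the mean of si4 and si5 or with si1, against those same shares. NOVA1, NOVA2 and RBFOX3 stayed under 1 FPKM and were not among the 16. With si4 alone, 1 passed downward, where 6.36% of all genes passed either way. It was ESRP1, an epithelial splicing regulator, at 1.30, 1.73, 1.52 and 2.17 FPKM and 0.598 times the control with si4. ESRP1 was the lowest of the list in both comparisons, at log2 ratios of -0.52 and -0.52, and MBNL3 was the highest with si1, at 0.30. Among genes with at least 5 FPKM in a library, MBNL2 (5.55, 5.61, 4.86 and 4.91 FPKM) and ESRP2 (9.77, 9.43, 10.1 and 10.9 FPKM) were the extremes with the ZSCAN5A siRNAs. KHDRBS3 (10.3, 8.92, 11.7 and 10.6 FPKM) and CELF2 (12.1, 11.7, 9.52 and 13.2 FPKM) were those with si1.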

How the data were processed

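RNA-seq of HEK-293 was analysed, with 1 library for each siRNA. Per the submitters' processing notes, the authors used CASAVA 1.8.2, Trimmomatic 0.30, TopHat2 2.1.0 and Cufflinks 2.2.1 with hg19 and deposited 1 table of FPKM values per gene row and library. Labels and methods name different stranded mRNA kits (TruSeq and KAPA). The table holds 0 other columns of per-sample values, and FPKM was used as deposited.

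The ratio rule was 1.5-fold with at least 1 FPKM in a library of the comparison and neither side at 0. Medians and signs left out rows at 0 in any library of the comparison, and this was also added, after seeing the data, as an alternative for the count. With 1 control library no p-value was computed in the ratio rule, and the read-level test of the study's methods was not repeated. Genes of the text followed a rule: members past 1.5-fold or with the control over 1.2-fold outside the siRNA libraries, the 5 highest per family, the extremes of each comparison, members at 0 or under 1 FPKM, copies, antisense and read-through rows, the 3 largest differences between si4 and si5, and the extremes of each list among genes with 5 FPKM in a library. Other members are given for completeness, and SRRM1, ESRP1 and MBNL3, as well as the comparison with level classes, GC content and copies, were described after values had been seen. The members and lists were chosen with earlier results of these data known.

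Depth came from steps between low FPKM values. Of 1745 genes under 0.1 FPKM, 70.1% had values in whole-number proportions (numbers up to 40, tolerance 0.05%). For other genes, fragments were estimated from depth and the length of the canonical transcript. Intervals are exact 95% Clopper-Pearson intervals, and floors and intervals cover counting error only. Transcripts came from GENCODE lifted to GRCh37, and copies were searched with BLAST+ 2.17.0. Analyses used Python 3.11.15, NumPy 2.4.6, pandas 2.3.3, SciPy 1.17.1, matplotlib 3.10.9 and limma 3.58.1 in R 4.3.3, and were tested on simulated data. Alternatives were the expression and fold limits, a pseudocount, 2 scalings, each ZSCAN5A siRNA left out, and limma. Protein sequences were not used here. An alignment between member copies is not reported here.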

Additional observations from a re-analysis of the deposited data

Results flagged for a closer look

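Of the 35 members at 1 FPKM or above somewhere and above 0 throughout, 3 split the siRNAs around the control. Both ZSCAN5A siRNA libraries lay on one side of it and the library labelled ZSCAN5B knockdown on the other. The share of all genes with this order was not counted, so 3 cannot be called many or few. The difference was not tested, since the si1 group has 1 library. HNRNPH3 had 100 and 99.0 FPKM with si4 and si5 against 88.7 FPKM with si1 and 90.3 FPKM in the control, and its log2 ratio with si1 minus that with the mean of si4 and si5 was -0.17. HNRPLL had 16.0 and 16.9 FPKM against 18.4 FPKM with si1 and 17.1 FPKM in the control, a difference of 0.16. HNRNPA0 had 84.3 and 89.8 FPKM against 92.3 FPKM with si1 and 90.9 FPKM in the control, a difference of 0.08. No group had the 4 libraries that a check for a sample far from its group needs.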

How the results depend on the processing

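With the mean of si4 and si5, 1 member (HNRNPK) passed 1.5-fold. The count was 2 without an expression limit (HNRNPK and HNRNPA3P1), 4 at 1.2-fold, 0 at 2-fold, 0 with limma on log2(FPKM + 1) and 0 with rows at 0 in any library left out, an alternative added after seeing the data. Leaving out si4 or si5 gave 0 to 1 members, 0 on si5 because HNRNPK is listed at 0 there and 1 (HNRNPA1P10) on si4. With si1 the count was 3 at 1.2-fold and 0 under the other alternatives. Shares of all genes past the ratio limit were counted at 1.5-fold only. Counts at other limits are therefore not a result about the members. A gap of over 1.2-fold changed the members with the control below from 12 to 1 and those with the control above from 6 to 0. The other alternatives kept these counts within 1.5 times. Median log2 ratios with the ZSCAN5A siRNAs ran from -0.051 (without si4) to 0.053 (without si5) for SRSF genes and from 0.008 to 0.097 for hnRNP rows. No paired analysis was possible because each siRNA has a single library and the control carries no number shared with them. With 1 control library, a ratio cannot be set against a spread between control cultures, and p-values from limma rest on the spread between 2 siRNAs. FPKM keeps no counts, so that fragments behind abundant members are estimates.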

Other observations

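Some genes that share a locus with members were read as well. MIR7-1, a microRNA row within HNRNPK, was at 0, 15.7, 11.9 and 0 FPKM in the si4, si5, si1 and control libraries, so it was above 0 in the library where HNRNPK was listed at 0 and in 1 where it was not. COX20, next to HNRNPU-AS1, had 3.10, 3.08, 2.81 and 2.75 FPKM. BSCL2, which the read-through row of HNRNPUL2 runs into, had 1.55, 1.34, 1.42 and 1.30 FPKM. MFSD11, a neighbour of SRSF2, had 17.2, 15.4, 15.9 and 17.4 FPKM. The control was the lowest library for COX20 and BSCL2 and the highest for MFSD11, and no cause was tested.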
